A study of Mus musculus with 8 samples.

Results

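Rab GTPases are small GTP-binding proteins, each of which marks particular membranes of a cell and directs the budding, transport, tethering or fusion of vesicles there. A Rab is active when bound to GTP. Exchange factors (GEFs) load GTP, GTPase-activating proteins (GAPs) end the active state, effectors read it, and prenyl groups with the GDI and REP escort proteins hold the Rab on or off the membrane. In blood cells, Rab27a, Rab27b, Rab37, Rab3d and their partners are known for the release of granules, and Rab32 and Rab38 for building lysosome-related organelles such as the dense granules of platelets. The Rab genes were taken as the rows of the bulk RNA-seq table whose symbol is Rab followed by digits and at most one letter with further digits. This gave 56 of the 15576 genes in the table, of which 45 had enough counts to be tested and 11 did not.

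Cells sorted as stem cells from the bone marrow of C57BL/6 CML mice were profiled, and 4 libraries of untreated mice (CML) were compared with 4 of mice given the tyrosine kinase inhibitor imatinib (CML-TKI). Mice of both groups carried the BCR-ABL and SCL-tTA transgenes (BCR-ABL×SCL-tTA), so that withdrawal of tetracycline switches on BCR-ABL in the cells where the SCL promoter drives tTA. The labels give 400 mg/kg imatinib by gavage on alternate days, for 4 weeks in one label and 30 days in another, and no age. The paper's figure legend for its RNA-seq of leukemic stem cells gives a lower dose, so the dose behind these libraries is not certain. The labelled gate was Lin-Sca1+cKit+Flt3-CD150-CD48+ in both groups, whereas the paper describes its leukemic stem cells as CD150+CD48-, and the labels do not say whether the libraries of a group came from separate mice. The p-values below therefore measure the spread between these libraries, which may be technical. The CML libraries are called CML 1, 2, 3 and 5 after their columns, since no label carries the number 5. The values are estimated counts per gene, shown as CPM (counts scaled to a common library size) after TMM normalization. A gene was called when the adjusted p of edgeR's quasi-likelihood test was under 0.05. The variation between libraries beyond counting error was 28.04% in CML and 69.15% in CML-TKI. It was 11.02% over CML 1 to 3 and 61.32% over CML-TKI 2 to 4. The test fits 1 dispersion per gene over both groups, although their spread differed. Whether CML 1 to 3 are separate mice was not tested.

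The libraries differed in more than treatment. Totals ran from 4939644 to 8620101 counts in CML and from 1041552 to 5104268 in CML-TKI, so that 3 counts, taken as the floor of detection, stood for at most 0.576 CPM in a CML library and 3.27 CPM in CML-TKI 3. Of the listed marker genes, 11 of 12 for granulocytes and 9 of 9 for monocytes were called higher in CML-TKI. The summed level of the granulocyte list was 152 to 256 CPM in CML and 1464 to 8513 CPM in CML-TKI, and that of the monocyte list 24.0 to 45.1 and 1018 to 5344 CPM. All 9 stem cell markers tested were lower, 3 of them called, with sums of 1434 to 1676 CPM in CML and 68.7 to 494 CPM in CML-TKI. All 6 megakaryocyte markers tested were also lower, 2 of them called, with sums of 1262 to 1495 and 50.2 to 532 CPM. Of the erythroid list none of 6 was called by edgeR or by DESeq2 (3 at an unadjusted p under 0.05), and its sum was 139 to 236 CPM in CML and 61.3 to 23757 CPM in CML-TKI, highest in CML-TKI 3. The basophil and mast cell sum was 2.05 to 4.03 CPM in CML, where Mcpt8 was at 0 in all libraries, and 4.36 to 1156 CPM in CML-TKI, highest in CML-TKI 4. The lymphoid sum was 0.384 to 2.03 CPM in CML, where Cd3e and Dntt were at 0, and 6.98 to 191 CPM in CML-TKI. Of the sorted surface markers, Slamf1 (CD150) averaged 32.2 ± 3.71 CPM in CML and 3.31 ± 2.72 in CML-TKI, and Cd48 5.01 ± 1.23 and 103 ± 56.5 CPM (SD, n = 4 each). In the CML-TKI libraries both lay on the side of the labelled CD150-CD48+ gate, and in the CML libraries on the opposite side. Kit, a receptor the gate selects for, fell from 932 ± 119 to 247 ± 43.9 CPM (SD, n = 4 each, edgeR adjusted p = 0.00087). Ly6a (Sca1), also selected for by the gate, and Flt3, selected against, were not called, and their groups overlapped. Ly6a averaged 35.7 CPM in CML and 15.9 CPM in CML-TKI (edgeR adjusted p = 0.373), and was highest in CML-TKI 1, at 43.96 CPM. Flt3 averaged 16.4 CPM in CML and 25.6 CPM in CML-TKI (edgeR adjusted p = 0.522). CML-TKI 1 lay nearest to the CML libraries, with the lowest granulocyte and monocyte sums and the highest stem cell sum of its group. All Rab values below come from these libraries, in which fewer cells of a type and less RNA per cell cannot be told apart, and the part of these markers in the Rab results was not tested.

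Few Rab genes passed the test, and those that did went in both directions. Of the 45 Rab genes tested, 6 were called (13.3%), against 10.2% of all 11937 genes tested. Rab44 and Rab7b rose in the CML-TKI libraries (4.44%, against 6.29% of all genes), and Rab38, Rab37, Rab43 and Rab11a fell (8.89%, against 3.93%). In 12 Rab genes the groups did not overlap (26.7%, against 23.4% of all genes), 6 with every CML-TKI library higher (13.3%, against 10.3%) and 6 with every one lower (13.3%, against 13.1%). The median log2 fold change of CML-TKI over CML was 0.20 over the Rab genes tested, with 29 above and 16 below 0, and -0.000289 over all genes. Scaling to total counts without Rn45s, a ribosomal RNA gene, moved these medians to 0.05 and -0.14. The Rab median ran from 0.13 to 0.25 when 1 library at a time was left out. The summed Rab level was 2769 to 2835 CPM in the CML libraries and 2643.5 to 3676 CPM in the CML-TKI libraries. Leaving out 1 library at a time, edgeR called between 4 and 13 Rab genes, while the share called of all genes went from 4.13% to 20.6%. The 13 (28.3% of the Rab genes tested) came without CML-TKI 1, where the share of all genes was 20.6%, and Rab21, Rab23, Rab27a, Rab32, Rab39, Rab39b, Rab3d and Rab6b were added and Rab43 was lost. Without CML-TKI 1 and CML-TKI 3 together 16 were called (34.8%, against 26.2% of all genes).

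**Figure D1:**
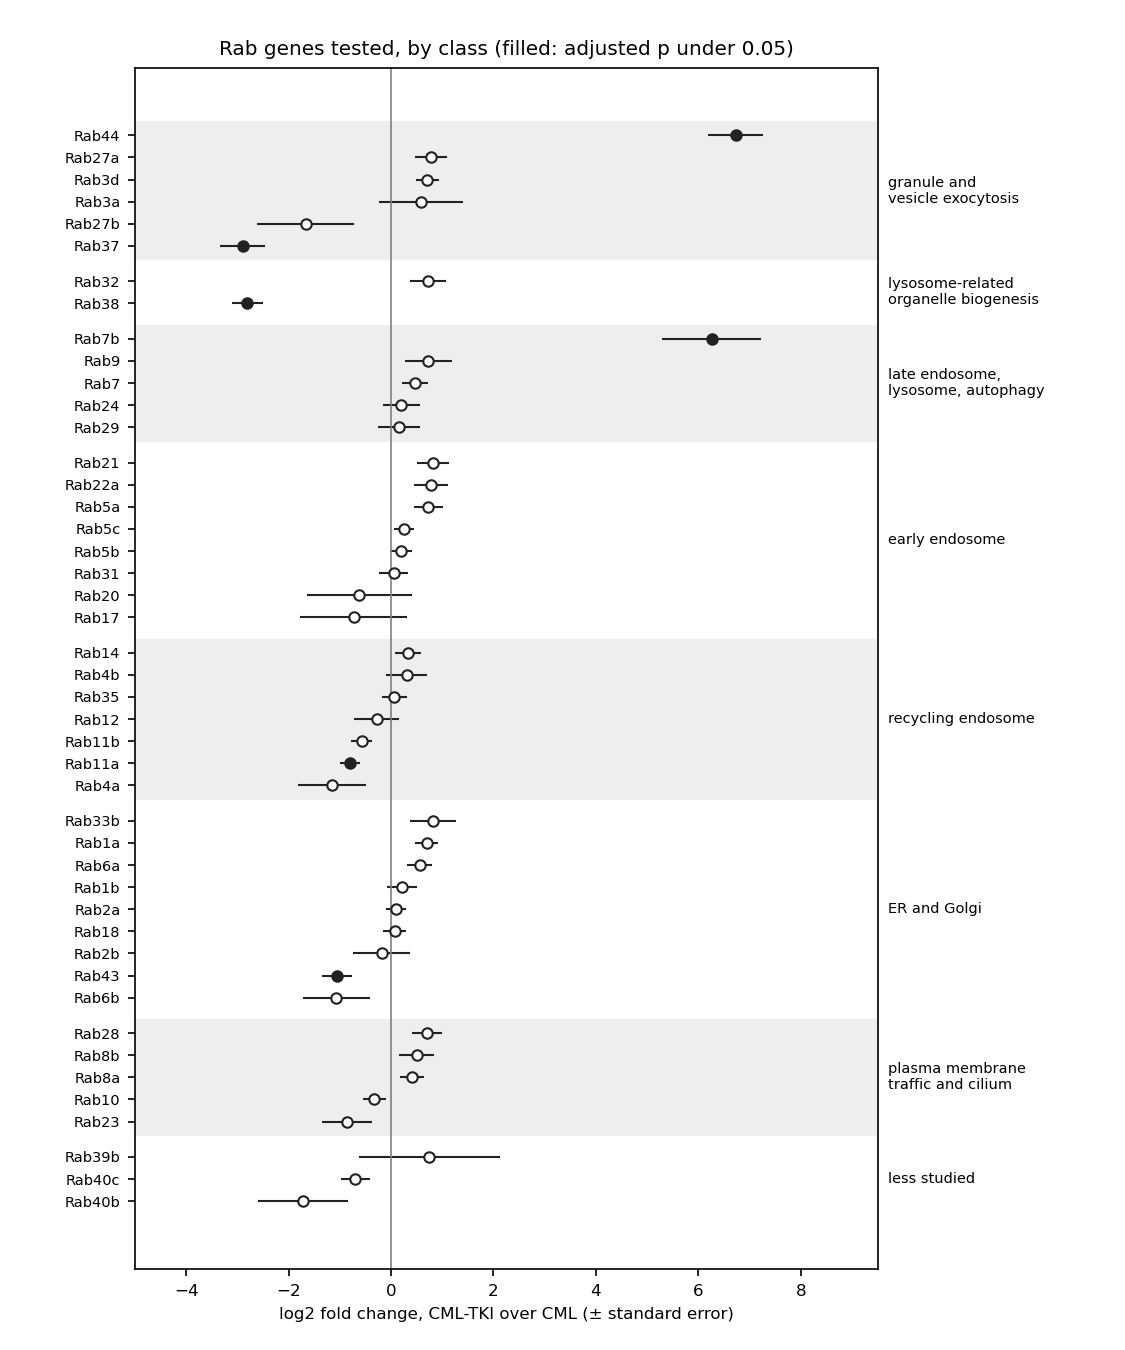
Log2 fold change of CML-TKI over CML for the 45 Rab genes tested, grouped by the compartment they serve, with bars of ± 1 standard error from edgeR and filled points for an adjusted p under 0.05. Rab44 (6.74) and Rab7b (6.26) lie far to the right, Rab38 (-2.81) and Rab37 (-2.90) to the left, and the genes that were not called lie between -1.72 and 0.82.

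Rab44, a large Rab with an EF-hand region beside its GTPase domain that has been studied in bone marrow-derived cells, rose in the CML-TKI libraries. Its gene lies on chromosome 17 from 29114128 to 29148980 (GRCm38, the assembly also called mm10). The level was 1.89, 1.15, 2.11 and 2.73 CPM in CML 1, 2, 3 and 5, and 70.2, 271.9, 215.6 and 303.9 CPM in CML-TKI 1 to 4. Every CML-TKI library was far above every CML library, and CML-TKI 1, which also had the lowest granulocyte and monocyte sums, was the lowest of its group. The mean went from 1.97 ± 0.653 to 215 ± 103 CPM (SD, n = 4 each), a log2 fold change of 6.74 ± 0.54 (SE) with an edgeR adjusted p of 0.000462. The call held in all 16 alternative settings, with log2 fold changes from 6.51 to 7.15. A pseudogene, Rpl35a-ps3, overlaps 429 bases of the gene.

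Rab7b, which shares its name with the late endosomal Rab7 and is known for moving Toll-like receptors away from endosomes in macrophages, was at the limit of detection in the CML libraries. It lies on chromosome 1 from 131688681 to 131715443. Its counts were 3, 0, 0 and 1 in CML 1, 2, 3 and 5, or 0.406, 0, 0 and 0.137 CPM, and 40, 30, 24 and 48 in CML-TKI 1 to 4, or 7.55, 9.24, 26.1 and 12.4 CPM. No CML library had more than the 3 counts taken as the floor, and every CML-TKI library did. Pooled over libraries, 142 counts in CML-TKI stood against 4 in CML, a ratio of 66.9 per effective library size with a 95% interval of 25.6 to 249.0 that covers counting error only. The edgeR adjusted p was 0.0038, and the fitted log2 fold change of 6.26 depends on the prior count. The call was lost in 2 of 16 alternatives, with an adjusted p of 0.122 on the 6 libraries numbered 1 to 3 with their number as a block and 0.0562 with CML 1 to 3 summed to 1 library.

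Rab38, known for delivering cargo to melanosomes and to the dense granules of platelets, fell in the CML-TKI libraries. Its gene lies on chromosome 7 from 88430273 to 88491572. It stood at 151.5, 150.1, 134.6 and 156.2 CPM in the CML libraries and at 29.8, 11.1, 18.5 and 24.3 CPM in CML-TKI 1 to 4. The groups were well apart, and the CML libraries were close to each other. The means were 148 ± 9.40 CPM in CML and 20.9 ± 8.02 CPM in CML-TKI (SD, n = 4 each), 6.99-fold higher in CML by the fit. The log2 fold change was -2.81 ± 0.30 (SE) with an edgeR adjusted p of 0.00087, and the call held in all 16 alternatives. The megakaryocyte and stem cell sums, which are lower in CML-TKI as given above, moved in the same direction.

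Rab37, a Rab of secretory granules studied in mast cell degranulation, fell by a similar amount. It lies on chromosome 11 from 115091331 to 115162773. Its level was 81.2, 78.8, 86.0 and 114.5 CPM in the CML libraries and 15.3, 4.62, 6.53 and 20.2 CPM in CML-TKI 1 to 4. All CML-TKI libraries were below all CML libraries. The means were 90.1 ± 16.5 and 11.6 ± 7.33 CPM (SD, n = 4 each), with a log2 fold change of -2.90 ± 0.44 (SE) and an edgeR adjusted p of 0.00366. Its locus shares 19159 bases with Cd300lf, an immune receptor gene that had too few counts to be tested and stood at 0.785 ± 0.261 CPM in CML and 13.7 ± 21.5 CPM in CML-TKI. No source says that strand was used in counting, so reads of such overlapping genes are uncertain. The call was lost only when CML 1 to 3 were summed to 1 library (adjusted p = 0.0561). The basophil and mast cell sum given above moved in the opposite direction to Rab37, and the stem cell and megakaryocyte sums in the same one.

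Rab43 and Rab11a fell by smaller amounts, close to the threshold. Rab43 acts in transport at the Golgi, and its gene lies on chromosome 6 from 87788853 to 87812164. Rab43 measured 157.1, 118.9, 130.6 and 182.1 CPM in the CML libraries and 53.6, 56.6, 114.3 and 62.5 CPM in CML-TKI 1 to 4. CML-TKI 3, the shallowest library, came within a few CPM of the lowest CML library without overlapping it. The log2 fold change was -1.05 ± 0.29 (SE), with an edgeR adjusted p of 0.0452 that was above 0.05 in 10 of 16 alternatives. Among these, it was 0.0509 to 0.127 without any 1 of CML 1, 2, 3 or 5 and CML-TKI 1, 2 or 4. Rab11a, the standard marker of recycling endosomes, lies on chromosome 9 from 64715300 to 64737756. Rab11a measured 130.6, 130.6, 123.8 and 124.6 CPM in CML and 88.1, 63.1, 79.5 and 63.3 CPM in CML-TKI 1 to 4. Here the CML libraries were tight, the CML-TKI libraries were wider apart, and the groups did not overlap. The log2 fold change was -0.79 ± 0.19 (SE), with an edgeR adjusted p of 0.0295 that was above 0.05 in 8 of 16 alternatives, among them at 0.0705 to 0.107 without any 1 of CML 1, 2 or 3 and CML-TKI 2 or 4.

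The promoters of these last 2 genes were read because both fell and both had a window in the RefSeq table used (GRCm38.p6), which matched 45 of the 56 Rab genes with 57 windows of 250 bases before to 50 bases after a start. The Rab11a window (chr9:64737707-64738006, minus strand) and that of the most upstream of 4 Rab43 starts (chr6:87812115-87812414, minus strand) are printed 5′ to 3′ on the strand of the gene. Capitals mark the letters GGGCGG, the GC box, or their complement.
Rab11a: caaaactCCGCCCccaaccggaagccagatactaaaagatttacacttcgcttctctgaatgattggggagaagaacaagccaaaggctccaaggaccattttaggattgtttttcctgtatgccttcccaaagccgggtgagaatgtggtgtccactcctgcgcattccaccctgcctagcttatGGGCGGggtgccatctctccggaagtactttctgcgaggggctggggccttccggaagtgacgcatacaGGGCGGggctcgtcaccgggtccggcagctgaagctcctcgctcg
Rab43: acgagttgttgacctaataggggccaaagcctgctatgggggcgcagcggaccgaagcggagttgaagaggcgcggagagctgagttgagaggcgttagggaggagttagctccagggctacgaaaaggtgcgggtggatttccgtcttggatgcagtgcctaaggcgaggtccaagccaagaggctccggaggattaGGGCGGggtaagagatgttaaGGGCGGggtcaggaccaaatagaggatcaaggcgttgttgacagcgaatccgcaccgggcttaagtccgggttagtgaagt
Rab11a held the GC box at -243 (as its complement), -64 and 6, and Rab43 at -52 and -31, counted in bases from the start. Both windows were GC-rich, at 56.3% and 57.7%, against a median of 62.0% over the Rab windows and 52.7% over all 32851 windows. On both strands, GGGCGG occurred in 39 of the 57 Rab windows (68.42%) and in 35.66% of all windows. The E-box CACGTG occurred in 10.53% of Rab windows and 7.15% of all. For AGATAA, which GATA factors bind, the shares were 3.509% and 11.18%. For GAGGAA, found in ETS and PU.1 sites, they were 19.3% and 28.28%, and for TTGCNNAA, found in C/EBP sites, 7.018% and 10.8%. None of these other motifs was found in the Rab11a and Rab43 windows, and a match of letters is a description and not a bound site.

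**Figure D2:**
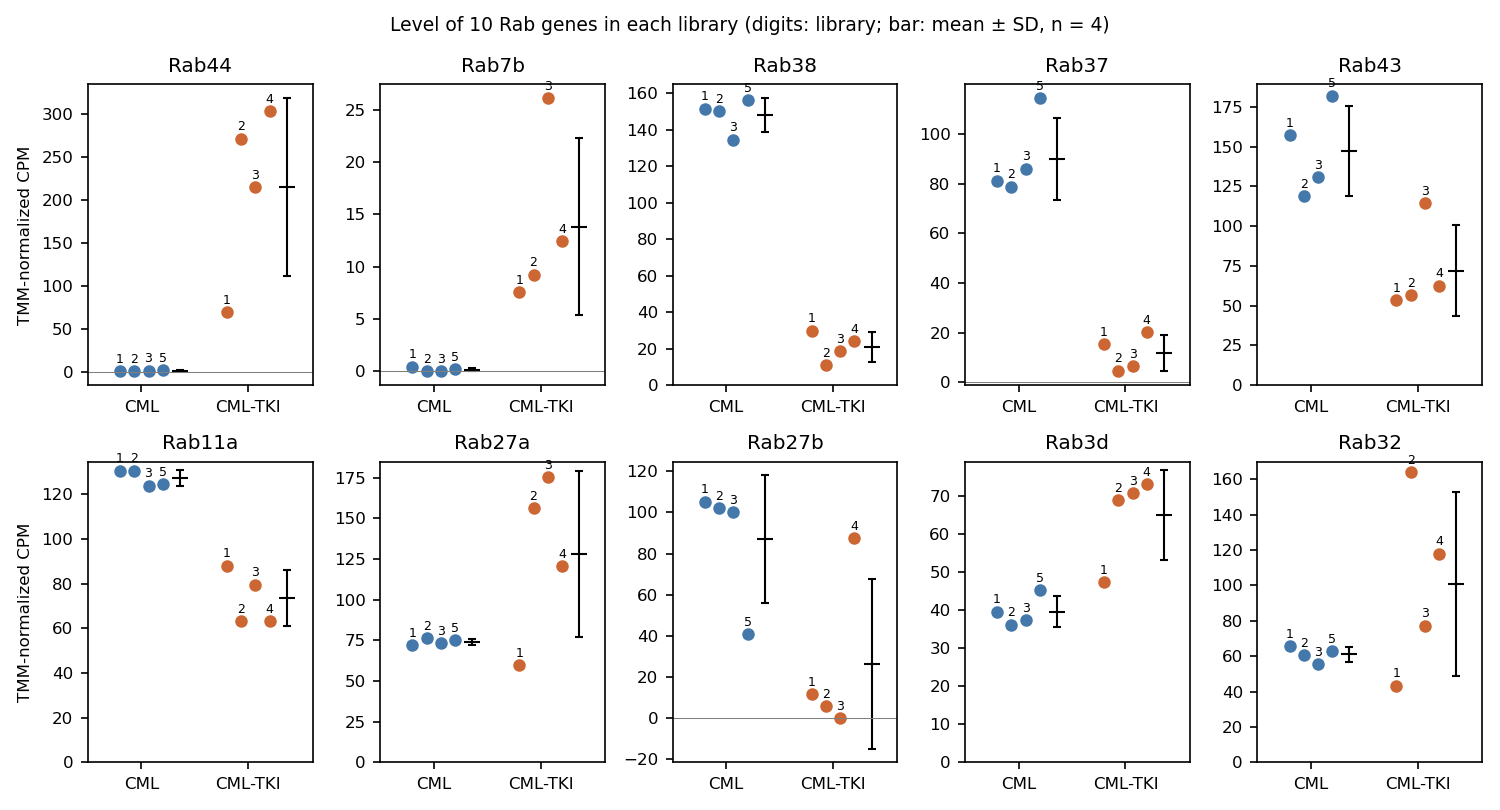
TMM-normalized CPM of 10 Rab genes in each library, 1 point per library with its number beside it, and the mean ± SD of each group (n = 4) as a bar. Rab44 and Rab7b are near 0 in CML, Rab38, Rab37, Rab43 and Rab11a are lower in every CML-TKI library, and in Rab27a, Rab3d and Rab32 CML-TKI 1 (59.6, 47.4 and 43.4 CPM) is the lowest of its group.

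Members for the release of granules went in different directions. Of the 7 genes in this class 6 were tested, 1 was called higher (Rab44) and 1 lower (Rab37), against 6.29% and 3.93% of all genes, with a median log2 fold change of 0.65. This median was 0.37 without CML-TKI 3 and -0.03 without CML-TKI 1 and CML-TKI 3 together. Rab27a, which docks lytic and neutrophil granules at the plasma membrane, stood at 71.8, 76.1, 73.3 and 75.0 CPM in CML and at 59.6, 156.1, 175.3 and 120.4 CPM in CML-TKI 1 to 4. CML-TKI 1 was below all CML libraries, and the other CML-TKI libraries were above all of them. Over all 8 libraries its log2 fold change was 0.78 ± 0.31 (SE) with an edgeR adjusted p of 0.140, and without CML-TKI 1 it was 1.02 with an adjusted p of 0.00762.

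Its close paralog Rab27b, known from mast cells and platelets, stood at 105.3, 102.2, 100 and 40.7 CPM in CML 1, 2, 3 and 5 and at 11.7, 5.85, 0 and 87.6 CPM in CML-TKI 1 to 4. The groups overlapped through CML 5, the lowest CML library, and CML-TKI 4, the highest CML-TKI library. CML-TKI 4 also had the highest basophil and mast cell sum (1156 CPM) and the highest megakaryocyte sum (532 CPM) of its group. Between the groups, the basophil and mast cell sum moved opposite to Rab27b, from 2.05 to 4.03 CPM in CML up to 4.36 to 1156 CPM in CML-TKI. The megakaryocyte sum was lower in CML-TKI, as was the mean of Rab27b. The log2 fold change of Rab27b, -1.67 ± 0.95 (SE), had an edgeR adjusted p of 0.306, and without CML-TKI 4 it was -3.67 with an adjusted p of 0.0187.

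Rab3d, a Rab of secretory granules, stood at 39.6, 36.2, 37.4 and 45.3 CPM in CML and at 47.4, 69.0, 70.8 and 73.1 CPM in CML-TKI 1 to 4. The groups did not overlap, by a small margin at CML-TKI 1. Its log2 fold change of 0.71 ± 0.23 (SE) was not called by edgeR (adjusted p = 0.0794) but was by DESeq2 (adjusted p = 0.0308). Rab3a, the synaptic vesicle Rab, was low, at 3.38, 2.11, 2.69 and 4.10 CPM in CML and 7.36, 0.616, 9.80 and 1.81 CPM in CML-TKI 1 to 4. Its log2 fold change was 0.59 with an edgeR adjusted p of 0.705, and 0.15 without CML-TKI 1 or 0.12 without CML-TKI 3. Rab26, which acts at secretory granules and synaptic vesicles, was not tested, with at most 6 counts in a library. It totalled 22 counts in CML and 3 in CML-TKI.

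Rab32, the paralog of Rab38 in building lysosome-related organelles, was not called. Rab32 stood at 65.5, 60.4, 55.7 and 63.0 CPM in CML and at 43.4, 163.8, 77.3 and 117.9 CPM in CML-TKI 1 to 4. CML-TKI 1 was below all CML libraries and the other CML-TKI libraries were above them. The log2 fold change was 0.72 ± 0.36 (SE) with an edgeR adjusted p of 0.240, and without CML-TKI 1 it was 0.98 with an adjusted p of 0.0274. Without CML-TKI 2, the highest library for Rab32, it was 0.37 with an adjusted p of 0.532.

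The balance within pairs of paralogs was read per library as the log2 ratio of their CPM. These ratios are not per length, so they compare libraries and not the level of one paralog with that of the other. The Rab32 to Rab38 ratio ran from -1.31 to -1.21 over the 4 CML libraries and from 0.54 to 3.84 over those of CML-TKI. It was lowest in CML-TKI 1 and highest in CML-TKI 2. The Rab27a to Rab27b ratio was -0.55, -0.42 and -0.45 in CML 1, 2 and 3 and 0.87 in CML 5, and in CML-TKI 1 to 4 it was 2.31, 4.64, 8.72 and 0.46, the value of CML-TKI 3 resting on 0 counts of Rab27b. The ratio of Rab6a to Rab6b, the broadly used and the mainly neuronal form of a Golgi Rab, was 0.31 to 0.93 in CML and 1.36 to 5.41 in CML-TKI. The ratio of Rab4a to Rab4b, Rabs of fast recycling, was -1.11 to -0.21 in CML and -3.65 to -1.64 in CML-TKI. In the other pairs the ratios of the groups overlapped. They are given without a test, since several of their genes were called or chosen above.

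**Figure D3:**
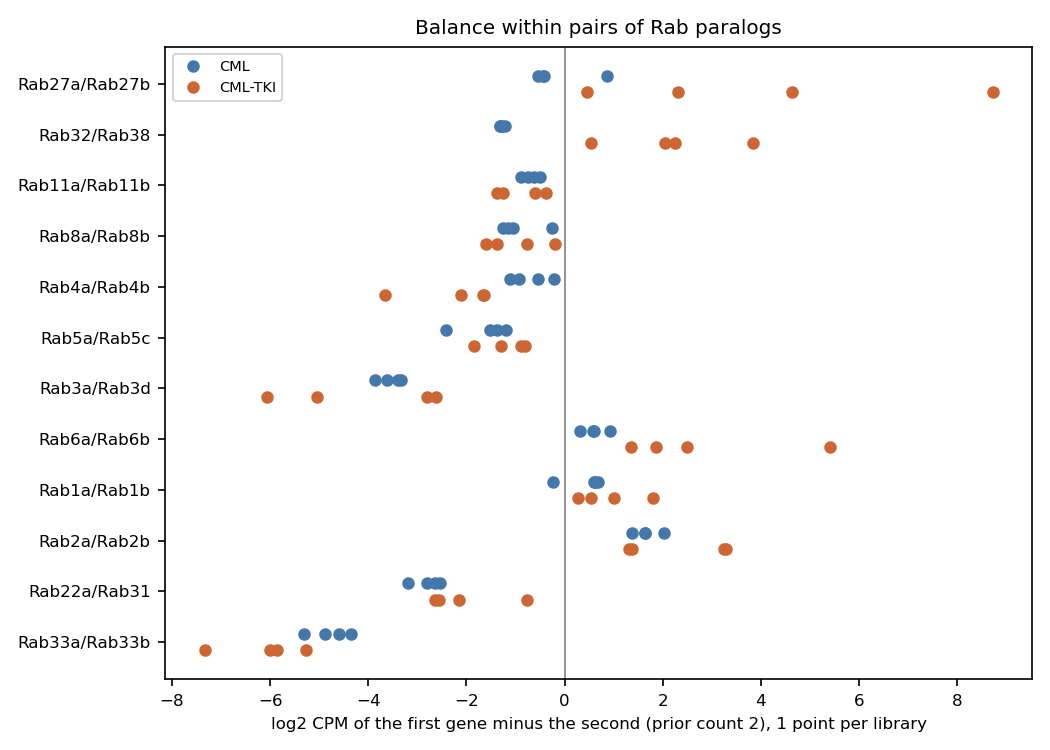
Log2 ratio of the CPM of paralogs (first gene minus second, prior count 2) in each library for 12 pairs, with CML and CML-TKI libraries in separate colours. For Rab32/Rab38 the CML libraries sit together between -1.31 and -1.21 and the CML-TKI libraries spread from 0.54 to 3.84.

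Of the late endosomal and lysosomal Rabs 5 of 6 were tested, and Rab7b alone was called (20%, against 10.2% of all genes). The log2 fold changes of the 5 were above 0, as for 5967 of all 11937 genes, with a median of 0.47 (0.30 without CML-TKI 2). Rab7, which matures late endosomes and drives their fusion with lysosomes, averaged 112 ± 12.8 CPM in CML and 155 ± 49.1 CPM in CML-TKI (SD, n = 4 each), with a log2 fold change of 0.47 and an edgeR adjusted p of 0.273. Without CML-TKI 2, the highest library for Rab7, it was 0.22. Rab9, for transport from late endosomes to the Golgi, had 0.73 (adjusted p = 0.360), Rab24, linked to autophagy, 0.20 (0.778), and Rab29, which recruits LRRK2 to membranes, 0.16 (0.853), all from the same edgeR fit. Rab24 was at 0.03 without CML-TKI 3, and Rab29 at 0.03 without CML-TKI 4.

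In the early endosome class, edgeR and DESeq2 called none of the 8 members, and 3 had an unadjusted p under 0.05, a limit that 25.7% of all genes passed. Rab5a, Rab5b and Rab5c, which drive the fusion of early endosomes, had log2 fold changes of 0.73, 0.19 and 0.25, with edgeR adjusted p-values of 0.132, 0.621 and 0.462. Rab21, which moves integrins, and Rab22a, which acts in recycling, had 0.82 and 0.78 (adjusted p = 0.128 and 0.179). Rab22a was higher in every CML-TKI library, at 13.8 to 18.4 CPM in CML and 19.8 to 42.5 CPM in CML-TKI. Rab31 was the flattest of the class at 0.05, and the low genes Rab20 and Rab17 had -0.62 and -0.73 with standard errors of 1.03 and 1.05. Leaving out single libraries took Rab20 from -1.14 to -0.18, Rab17 from -1.95 to -0.30, and Rab31 to -0.27 without CML-TKI 2, while Rab21 without CML-TKI 2 had 0.50. Over the same fits Rab5a ran from 0.60 to 0.89, Rab5b from 0.07 to 0.32 and Rab5c from 0.19 to 0.39.

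Recycling Rabs had a median log2 fold change of -0.28, and Rab11a was the called member of the 7 tested (14.3%, against 10.2% of all genes). Rab11b, which shares the recycling endosome with Rab11a, was also lower in every CML-TKI library. Its level was 184.0, 202.3, 206.6 and 231.9 CPM in CML and 134.2, 164.4, 103.4 and 151.5 CPM in CML-TKI 1 to 4, without overlap. The log2 fold change of -0.57 ± 0.21 (SE) was not called by edgeR (adjusted p = 0.111) but was by DESeq2 (adjusted p = 0.0235). Rab14, another recycling Rab, had 0.33, Rab4b 0.31, Rab35 0.06, Rab12 -0.28 and Rab4a -1.15, with the lowest edgeR adjusted p of these at 0.309 (Rab4a). Leaving out 1 library at a time, the class median ran from -0.53 (without CML-TKI 1) to 0.0041 (without CML-TKI 3, which also takes Rab12 to that value). Over the same fits Rab14 ran from 0.19 to 0.44, Rab4b from 0.10 to 0.53 and Rab4a from -1.57 to -0.84.

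Of the Rabs of the endoplasmic reticulum and Golgi, 9 of 12 were tested, Rab43 was called (11.1%, against 10.2% of all genes), and the median log2 fold change was 0.10. Rab1a, which carries vesicles from the endoplasmic reticulum to the Golgi, stood at 139.5, 138.6, 142.3 and 120.6 CPM in CML and at 225.7, 266.6, 231.9 and 150.9 CPM in CML-TKI 1 to 4. Every CML-TKI library was higher than every CML library. Its log2 fold change of 0.69 ± 0.22 (SE) had an edgeR adjusted p of 0.0736, the lowest among the Rab genes not called, and DESeq2 called it. Its paralog Rab1b had 0.21, Rab2a 0.10, Rab2b -0.18, Rab18 0.07 and Rab33b 0.82. The value of Rab33b was 0.20 without CML-TKI 1, where its level was 66.6 CPM against 15.7 to 26.1 CPM in the other CML-TKI libraries, and that of Rab1b was 0.06 without CML-TKI 3. Rab6a had 0.56 (adjusted p = 0.176) and Rab6b -1.07 (adjusted p = 0.348), and without CML-TKI 1 Rab6b had -1.98 and was called. The class median ran from 0.06 (without CML 5) to 0.18 (without CML-TKI 4) and was -0.04 with scaling to total counts without Rn45s.

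Rabs of plasma membrane traffic and cilium had no call by edgeR or DESeq2 among 5 tested, with 1 at an unadjusted p under 0.05 (25.7% of all genes). That member, Rab28, of the photoreceptor and primary cilium, was higher in every CML-TKI library, at 18.6 to 23.8 CPM in CML and 25.2 to 44.6 CPM in CML-TKI (log2 fold change 0.71, edgeR adjusted p = 0.156). Rab8a and Rab8b, which serve exocytosis and cilium growth, had 0.41 and 0.50, Rab10, of GLUT4 vesicles, -0.33, and Rab23, an inhibitor of Hedgehog signalling, -0.86. The value of Rab8b was 0.09 without CML-TKI 2, where it reached 339 CPM against 128 to 172 CPM in the other CML-TKI libraries, and that of Rab23 was -1.46 and called without CML-TKI 1. Of the less studied members 3 were tested, neither tool called any, and 1, Rab40c, had an unadjusted p under 0.05, again against 25.7% of all genes. Rab40b, which works with a ubiquitin ligase, was low but lower in every CML-TKI library, at 2.88 to 7.38 CPM in CML and 0 to 2.26 CPM in CML-TKI (log2 fold change -1.72, edgeR adjusted p = 0.252). Rab40c had -0.70 (adjusted p = 0.149). Rab39b was at 2.71, 2.68, 3.07 and 1.64 CPM in CML and at 15.7, 0, 0 and 0 CPM in CML-TKI 1 to 4, so its direction rests on CML-TKI 1, without which it was called lower (edgeR adjusted p = 0.0157). Over all members not called, 39 in number, the log2 fold change lay within 0.5 of 0 for 16.

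Levels between genes were compared as CPM per kilobase of exon, so their order depends on the exon lengths taken. By mean CPM alone, Rab11b (206), Rab14 (163) and Rab10 (152) stood above Rab38 (148) in CML. In the CML libraries Rab38 had the highest level of the 56 Rab genes, 85.3 to 99.1 CPM per kilobase, above every library of the second, Rab5c, at 40.3 to 59.7. Rab5c, Rab1b, Rab10, Rab7 and Rab11a followed with means from 46.3 down to 42.6 CPM per kilobase and overlapping ranges. In the CML-TKI libraries Rab38 stood 22nd with a mean of 13.3 CPM per kilobase. Rab7, Rab1a, Rab5c and Rab1b led there with means of 59.4, 57.6, 55.3 and 53.0 and overlapping ranges. Rab44 went from place 47, with a mean of 0.389 CPM per kilobase, to place 6, with 42.5, a level within the range of its neighbours Rab32 and Rab8b. Rab7b went from place 54 to 36, Rab37 from 17 to 42, Rab11a from 6 to 13 and Rab43 from 13 to 24. The 10 Rab genes with the highest CPM held 51.6% of the summed Rab CPM in CML and 53.0% in CML-TKI.

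**Figure D4:**
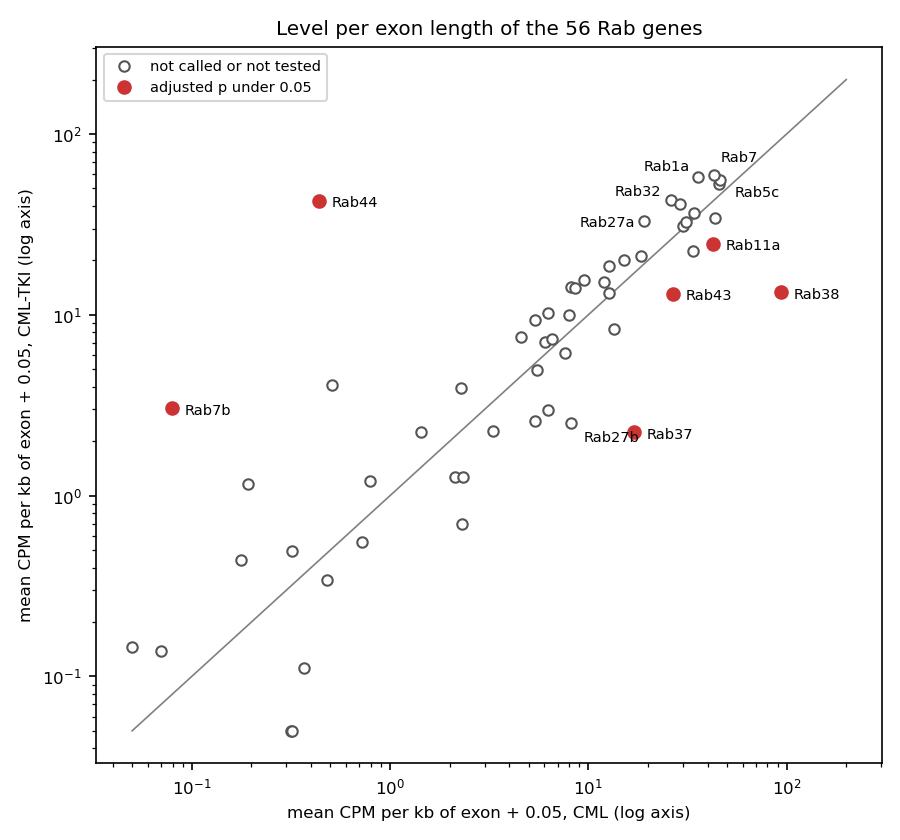
Mean CPM per kilobase of exon of the 56 Rab genes in CML (horizontal) and CML-TKI (vertical), both on log axes after adding a small constant, with the line of equal levels and filled points for genes called by edgeR. Rab44 stands far above the line (0.389 against 42.5) and Rab38 (93.9 against 13.3) and Rab37 (16.9 against 2.19) below it.

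The 11 Rab genes that were not tested were Rab13, Rab15, Rab19, Rab26, Rab30, Rab33a, Rab34, Rab36, Rab39, Rab42 and Rab9b. Several owed most of their counts to 1 library. Rab34, a Rab of cilium formation, had 182 of its 191 CML-TKI counts in CML-TKI 1 (34.3 CPM), against 29 in the CML libraries together. Rab15 had 38 counts, Rab30 18 and Rab9b 8 in CML-TKI 1 and none in the other CML-TKI libraries. Rab36 reached 31 counts in CML-TKI 4. Rab39, linked to phagosomes and autophagy in macrophages, had 10 counts in CML and 37 in CML-TKI, 21 of them in CML-TKI 4. It stood at 0.406, 1.15, 0 and 0.137 CPM in CML and at 0.377, 3.08, 4.36 and 5.43 CPM in CML-TKI 1 to 4, and the groups overlapped through CML-TKI 1.

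The genes that load, shut off, carry or read Rabs were taken from lists written by hand. Of 130 regulators and effectors in the table, 124 were tested and 8 were called (6.45%, against 10.2% of all genes), 2 higher and 6 lower, with a median log2 fold change of -0.13. Of 7 genes for prenylation and GDI none was called by edgeR or DESeq2, and 2 had an unadjusted p under 0.05 (25.7% of all genes). Gdi2, the broadly used extractor of Rabs from membranes, averaged 222 ± 31.0 CPM in CML and 329 ± 86.0 CPM in CML-TKI (SD, n = 4 each), higher in every CML-TKI library, with a log2 fold change of 0.57 and an edgeR adjusted p of 0.156. Chm, the escort protein REP1, had a log2 fold change of 0.72 (adjusted p = 0.386). CML 5 stood at 8.19 CPM and the other CML libraries at 26.3 to 42.6 CPM, and the value was 0.41 without CML 5.

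Among 39 GEF genes 2 fell (5.13%, against 3.93% of all genes). Rgp1, part of the GEF of Rab6, went from 154 ± 15.1 to 63.1 ± 17.8 CPM (log2 fold change -1.27, edgeR adjusted p = 0.0109), and Dennd2d, a GEF of the DENN domain family, from 84.3 ± 16.7 to 28.8 ± 14.0 CPM (-1.52, 0.0239). Among 38 GAP genes edgeR called 1 (2.63%, against 10.2% of all genes). DESeq2 called 5 of them, 3 higher and 2 lower, where it called 18.1% of all genes. Tbc1d31, a member of the TBC domain family, rose from 21.9 ± 5.72 to 57.6 ± 21.6 CPM (1.41, edgeR adjusted p = 0.0283). In Rgp1, Dennd2d and Tbc1d31 the groups did not overlap.

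Of 40 effectors tested, 1 rose and 4 fell by edgeR (12.5% called, against 10.2% of all genes, 6.29% higher and 3.93% lower). DESeq2 called 13 of the 40, 3 higher and 10 lower, where it called 18.1% of all genes. Uso1 (p115), the tether that Rab1 recruits to vesicles bound for the Golgi, rose from 45.4 ± 14.9 to 102 ± 5.24 CPM (log2 fold change 1.17, edgeR adjusted p = 0.0268). Osbpl1a (ORP1), a Rab7 effector that senses cholesterol, fell from 75.3 ± 13.9 to 23.1 ± 7.24 CPM (adjusted p = 0.00654). Myo5c, a myosin motor of secretory granules, fell from 23.5 ± 5.41 to 0.896 ± 1.79 CPM, with counts in CML-TKI 1 alone of its group (adjusted p = 0.0291). Rab11fip2, which links Rab11 to myosin 5, fell from 39.0 ± 11.5 to 15.8 ± 5.62 CPM (-1.32, adjusted p = 0.0494), and Ocrl, a phosphoinositide phosphatase bound by several Rabs, from 142 ± 32.0 to 48.6 ± 31.7 CPM (-1.52, 0.0483). Unc13d (Munc13-4), the Rab27 effector that primes granules for fusion, stood at 160.1, 163.0, 137.7 and 188.8 CPM in CML and at 46.2, 23.7, 42.5 and 116.3 CPM in CML-TKI 1 to 4. The groups did not overlap, yet its edgeR adjusted p was 0.0523, and without CML-TKI 4 the log2 fold change was -2.13 (adjusted p = 0.00533). Over the 16 alternatives the calls of Rgp1 and Osbpl1a were lost in 3 and 2, and those of Dennd2d, Uso1, Myo5c, Tbc1d31, Rab11fip2 and Ocrl in 6, 7, 8, 9, 9 and 11. Without CML 1, 2 or 3, edgeR called 2 of the regulators and effectors (1.59% to 1.6%, against 4.13% to 4.69% of all genes), and without CML-TKI 1 it called 23 (18.5%, against 20.6%).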

How the data were processed

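Bulk RNA-seq of the sorted cells came as one table of 8 libraries, 4 CML and 4 CML-TKI. The values deposited by the authors are estimated counts per gene with no normalization. According to the paper's methods and the submitters' processing notes, RNA from the RNeasy Plus mini kit was made into Nextera XT libraries, and paired reads were aligned to mm10 (STAR 2.6.1d) and assigned to RefSeq transcripts with Partek 8.0. A spreadsheet had turned 20 gene symbols into dates. Each column was given to a label by its group and number. The column numbered 5 matched no numbered label and served as the fourth CML library.

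Estimated counts were rounded to whole numbers. Those of 3 Rab genes (Rab20, Rab5a and Rab6a) lay more than 0.05 from a whole number, so some of their reads were shared with other features. The whole table was fitted in edgeR 4.0.16 (R 4.3.3), with TMM, filterByExpr (minimum count 10, minimum total 15), robust dispersions and quasi-likelihood tests, and p-values were adjusted by Benjamini-Hochberg over the 11937 genes that passed the filter. The SE is the size of the log2 fold change over the square root of F. A prior count of 2 was used for log2 CPM. Levels per kilobase use union exon lengths of the GENCODE annotation of GRCm38, while reads had been assigned to RefSeq transcripts. Coordinates are those of RefSeq for GRCm38.p6, in which 24 Rab genes overlap another gene, 7 of them one in the table. Reads carried no molecular identifiers, so floors and intervals cover counting error only. The scripts were tested on simulated data with the library sizes and fitted dispersions of these libraries. There the test called 4.26% of the genes changed 2-fold, 59.6% of those changed 4-fold and 78.7% of those changed 8-fold. A gene that was not called may therefore still have changed by such an amount.

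The rule for named genes took every Rab gene, with values in each library for those called and for the granule and lysosome-related organelle classes, and of regulators and effectors those called and Unc13d, Gdi2 and Chm. A further gene under this rule is not reported here. Other Rab genes given by library were picked with their values in view. The members, lists and tests were chosen with earlier results of these data known. DESeq2 1.42.0, other scalings, no filter, a replicate block and leaving out or summing libraries were the alternatives. The other experiments of the series were not analysed here.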

Additional observations from a re-analysis of the deposited data

Results flagged for a closer look

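Both groups of 4 libraries were examined for each Rab gene that reached 10 counts in at least 1 of the 8 libraries. In 12 of these 104 groups, 1 library stood far from the other libraries of its group by Dixon's ratio, where chance flags about 1 in 20 groups, or 5.2 of 104. CML 5 was that library in 6 of the 12 cases and CML-TKI 1 in 5. CML 5 was low for Rab10 (120 CPM, the others 160 to 168), Rab1a (121, the others 139 to 142), Rab27b (40.7, the others 100 to 105), Rab7 (93.3, the others 118 to 120.3) and Rab8b (88.8, the others 150.4 to 160), and high for Rab1b (141, the others 88.7 to 91.7). CML-TKI 1 was low for Rab29 (6.23 CPM, the others 11.7 to 13.2) and Rab3d (47.4, the others 69.0 to 73.1). It was high for Rab15 (7.17 CPM), Rab30 (3.40 CPM) and Rab39b (15.7 CPM), which were at 0 in the other CML-TKI libraries. For these genes the ties at 0 fix Dixon's ratio at 1 in advance. Rab15 and Rab30 moreover reached 10 counts in CML-TKI 1 alone. Their flags are thus no test, although they are part of the 12 and the 5 counted above. CML 2 was low for Rab4a (6.14 CPM, the others 10.2 to 10.6). None of these genes was called by edgeR over all 8 libraries.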

How the results depend on the processing

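Of the 6 Rab genes called, Rab44 and Rab38 were called in all 16 alternatives. DESeq2 called 9 Rab genes (20%, against 18.1% of all genes), 6 of them those of edgeR. The shared numbers 1 to 3 are not said to pair animals, and the deviations of same-numbered libraries correlated at -0.042, 0.097 and 0.093, CML 2 alone being closest to its own number. With the replicate block on these 6 libraries edgeR called 3 Rab genes (6.67%), 1 regulator or effector (0.8%) and 193 of all genes (1.6%). Rab7b, Rab43 and Rab11a were lost. The same libraries without the block (chosen after seeing the data) gave 6 (13.3%), 6 (4.8%) and 589 (4.88%). Rab43 and Rab11a were lost there too. With CML 1 to 3 summed to 1 library, 2 Rab genes (4.26%) and 0 regulators or effectors were called, with 0.971% of all genes. In that setting 17 regulators or effectors had an unadjusted p under 0.05, a count without a share of all genes beside it. By DESeq2 on all 8 libraries 20 regulators or effectors were called (16.1%, against 18.1% of all genes). Leaving out 1 library at a time gave 4 to 13 Rab genes and 2 to 23 regulators and effectors, with 4.13% to 20.6% of all genes, and without CML-TKI 1 and CML-TKI 3 together (chosen after seeing the data) 16 and 35, with 26.2%. Over the Rab genes tested, 654 of the log2 fold changes kept direction and side of the threshold, 21 lost a call, 21 gained one in the same direction, and 24 changed sign, among them Rab39b, called lower without CML-TKI 1 and without CML-TKI 1 and 3. Scaling without Rn45s turned Rab18 to -0.072, Rab2a to -0.039, Rab31 to -0.093 and Rab35 to -0.086. The replicate block turned Rab31 to -0.012 and Rab39b to -1.44, summing CML 1 to 3 turned Rab31 to -0.038 and Rab35 to -0.053, and the 6 libraries without the block turned Rab2b to 0.10. Without CML-TKI 1 and 3, Rab24 was -0.052, Rab2a -0.081, Rab39b -6.77, Rab3a -1.31 and Rab4b -0.033. Leaving out 1 library at a time, the log2 fold change ran from -0.53 to 0.0041 for Rab12, -0.11 to 0.15 for Rab18, -0.67 to 0.12 for Rab2b, -0.27 to 0.23 for Rab31, -0.15 to 0.19 for Rab35 and -6.59 to 1.17 for Rab39b. None of these was called over all 8 libraries, and the cause was not tested. Depth limits the low members most in CML-TKI 3, where 3 counts stand for 3.27 CPM.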
